A study of Mus musculus with 19 samples.

Results

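The arrays were used here to follow 10 genes that control how many mitochondria a muscle fiber makes and how these mitochondria divide and fuse. The members were the array probes whose gene name was Ppargc1a, Ppargc1b, Pprc1, Tfam, Nrf1, Esrra, Opa1, Dnm1l, Mfn1 or Mfn2, which gave 20 probes, of 39429 on the array for 30214 gene names. Quadriceps total RNA came from male mice congenic on C57Bl6J at 180 days of age, either AR113Q mice, the knock-in model of spinal and bulbar muscular atrophy (SBMA), or wild-type controls (CTR). Both genotypes were kept on either the normal chow diet (NCD) or, from 40 days of age, the high-fat diet (HFD). Each of the 19 arrays held a single sample: the CTR-NCD, AR113Q-NCD and AR113Q-HFD groups had 5 arrays each and the CTR-HFD group 4. The knock-in allele is carried by all tissues, so that muscle was not its only site. The sources used here do not say whether a sample was a single mouse, and p-values measure the spread between these samples, which may be technical.

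Mitochondrial biogenesis is driven by the PGC-1 family of co-activators, which bind no DNA themselves and dock on transcription factors such as NRF1 and the estrogen-related receptor ERRα (gene Esrra). These factors switch on nuclear genes for the respiratory chain and for TFAM, which is imported into mitochondria, where it packages mitochondrial DNA and starts its transcription. Division is carried out by the dynamin-related GTPase DRP1 (gene Dnm1l). Fusion of the outer membrane requires the mitofusins MFN1 and MFN2, and fusion of the inner membrane requires OPA1. In skeletal muscle this program is known to be higher in oxidative than in glycolytic fibers.

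Several genes were read by more than 1 probe, and for Nrf1, Tfam and Opa1 the probes did not all give the same call. Whether position along the transcript bore on this was not tested. The probes of these 3 genes are therefore given first, with mm9 positions from the array design. Each line holds the first 30 bases of a 60-base probe, 5′ to 3′, except for the first line, which holds all 60 bases because this is the Nrf1 probe that fell in AR113Q muscle. Within each gene the lines run from 5′ to 3′ along the strand of the gene. The Nrf1 downstream probe was designed on another transcript record than the other Nrf1 probes.
Nrf1 upstream probe A_52_P376269, chr6:30066141-30066200, plus strand: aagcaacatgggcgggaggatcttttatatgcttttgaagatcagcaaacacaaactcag
Nrf1 middle probe A_51_P201468, chr6:30101693-30101752, plus strand: tggcagcgttttctagtctactgcagaatt
Nrf1 downstream probe A_55_P2000077, chr6:30103035-30103094, plus strand: ctcccgtgcgtgatagtgtatttaatgtgg
Tfam upstream probe A_55_P2026445, chr10:70691260-70691319, minus strand: ctctgagcattaagatggaagacggagttg
Tfam middle probe A_51_P493720, chr10:70691103-70691162, minus strand: ctttgagccttgacagaagatgatgctgag
Tfam downstream probe A_52_P351785, chr10:70688866-70688925, minus strand: cctctgaatttaaagctggtgttagcatac
Opa1 upstream probe A_55_P1964842, chr16:29651875-29651934, plus strand: ttgaagaatgaaaacttgagtcttttgtcc
Opa1 downstream probe A_52_P242724, chr16:29654447-29654506, plus strand: ctgtagcaactggaaatgtgcttgaaaata
On the genome, the Nrf1 upstream probe lies 35.5 kb from the nearer of the other Nrf1 probes, the Tfam downstream probe 2178 bases from its neighbour, and the Opa1 probes 2513 bases apart. These are not distances along the RNA. On the transcript for which both were designed, the Nrf1 upstream and middle probes start at positions 1101 and 1818.

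Values below are log2 signals relative to the 75th percentile of the same array, so that 0 stands for that percentile, and a difference of −1 is a halving. All 20 member probes were well above background on 19 of 19 arrays, and 0 were saturated. Over the arrays, 67.1% to 80.1% of all probes were well above background, and the 75th percentile itself lay at a log2 intensity of 9.51 to 9.86 on CTR and 9.65 to 10.18 on AR113Q arrays. All 8 skeletal muscle markers were well above background on every array. A probe was called when its adjusted p was under 0.05 in a limma fit of the 4 groups over 32026 probes. In RNA of a whole muscle, fewer cells of a type and less RNA per cell cannot be told apart.

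AR113Q muscle had lower signals of Nrf1, Tfam and Pprc1 at 1 probe each on both diets, and of Opa1 at 1 probe on the HFD. On the NCD, 3 of 20 member probes were called, all of them lower, against 17.6% of all probes tested (9.28% lower and 8.29% higher). On the HFD, 4 of 20 were called, again all lower, against 17.9% of all probes (9.93% lower and 8% higher). These shares of the members lie near the background, and the median difference of the 20 members was −0.03 on the NCD and −0.15 on the HFD, beside −0.05 and −0.07 over all probes tested. With each diet weighted equally, 5 of 20 members were called, 4 lower and 1 higher, against 29.3% of all probes (16% lower and 13.3% higher), and 10 of 20 had an unadjusted p under 0.05, against 38.5%. Called members ranged from 0.728-fold to 0.815-fold on single diets, and 0 passed an added size limit of 0.6-fold or 1.5-fold, which 4.33% of all probes passed on the NCD, 4.75% on the HFD and 5.07% over both diets. These calls depended on the scaling of the arrays. With the median of each array subtracted in place of the 75th percentile, or with normexp background correction, 0 member probes were called on either diet, and over both diets 2 and 1 were called. With quantile normalization 3 of 20 were called on each diet, among them the Nrf1 and Tfam probes on both. The shares of all probes called under these other scalings are not given here, so these counts cannot be set against the background. With slide as a block 3 of 20 were called on the NCD and 5 of 20 on the HFD, where 28% of all probes then passed. The plot of fold changes gives all 20 probes on both diets.

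**Figure D1:**
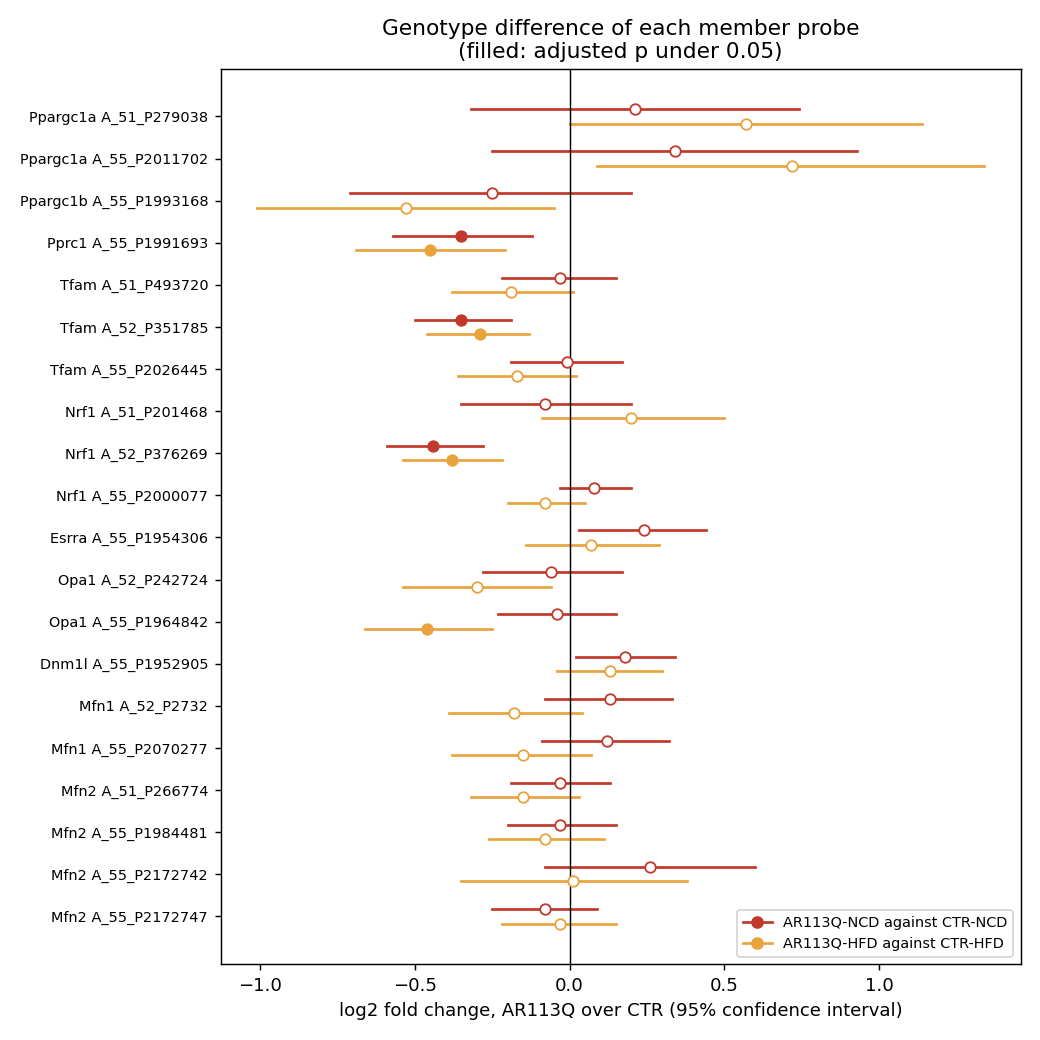
Difference in log2 signal between AR113Q and CTR quadriceps for each of the 20 member probes, on the NCD (red) and the HFD (orange). Points are limma estimates, bars 95% confidence intervals, and filled points have an adjusted p under 0.05. Filled points are the Nrf1 upstream, Tfam downstream and Pprc1 probes on both diets and the Opa1 upstream probe on the HFD, all to the left of 0.

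Ppargc1a encodes PGC-1α, the co-activator induced by exercise and cold and the best known inducer of mitochondrial biogenesis in muscle. Its genotype difference was positive on both diets but did not pass the test. The brighter of its probes (A_51_P279038, chr5:51848928-51848987, minus strand) read 3.80, 2.85, 2.53, 2.82 and 2.55 on the CTR-NCD arrays and 2.63, 3.57, 3.1, 3.33 and 2.98 on the AR113Q-NCD arrays. On the HFD it read 2.15, 2.77, 2.35 and 1.82 in CTR and 2.77, 3.20, 2.25, 2.97 and 3.04 in AR113Q muscle. The groups overlapped on both diets, and CTR-NCD replicate 1 was higher than every other array. AR113Q minus CTR was 0.21 (SE 0.25, limma adjusted p = 0.66) on the NCD and 0.57 (SE 0.27, adjusted p = 0.17) on the HFD. The other probe (A_55_P2011702, chr5:51846926-51846985) gave 0.34 (SE 0.28, adjusted p = 0.481) and 0.72 (SE 0.30, adjusted p = 0.114). Both probes moved together, with a correlation of 0.95 between their deviations from the group means over the 19 arrays, which share their RNA and scan.

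Averaged over both diets the Ppargc1a difference was 0.39 (SE 0.18, limma adjusted p = 0.13) and 0.53 (SE 0.20, adjusted p = 0.0613). A single control array bore on this value. Without CTR-NCD replicate 1, both probes were called higher in AR113Q muscle, at 0.50 (adjusted p = 0.0234) and 0.64 (adjusted p = 0.014). The second probe was also called without AR113Q-NCD replicate 1, CTR-HFD replicate 2, CTR-HFD replicate 3 or AR113Q-HFD replicate 3, at adjusted p of 0.0361, 0.0463, 0.0495 and 0.036. With all arrays it was called with slide as a random block (adjusted p = 0.0374), with the stricter filter and with the trended, robust variance, and not with slide as a fixed block (adjusted p = 0.056). Under normexp background correction its NCD difference turned to −0.11 (adjusted p = 0.677). That correction also moved the median NCD difference of all probes downwards, as given in the section on processing below.

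The other co-activators were dim. Ppargc1b encodes PGC-1β, a relative of PGC-1α that also drives oxidative genes. Its single probe read −3.81 ± 0.23 (SD, n = 5) in CTR-NCD, −4.07 ± 0.39 (n = 5) in AR113Q-NCD, −3.69 ± 0.33 (n = 4) in CTR-HFD and −4.23 ± 0.42 (n = 5) in AR113Q-HFD muscle. The genotype differences of −0.25 (SE 0.21, limma adjusted p = 0.498) and −0.53 (SE 0.23, adjusted p = 0.124) did not pass the test. On the HFD it was called lower without AR113Q-HFD replicate 5 (−0.68, adjusted p = 0.0439). Ppargc1b and Ppargc1a differences thus had opposite signs on both diets, with neither gene called.

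Pprc1 encodes PRC, a PGC-1-related co-activator that responds to serum and growth signals. It fell in AR113Q muscle on both diets. The probe (chr19:46147311-46147370, plus strand) read −3.11, −3.51, −3.65, −3.41 and −3.36 in CTR-NCD and −3.67, −3.61, −3.87, −3.74 and −3.87 in AR113Q-NCD samples. On the HFD it read −3.56, −3.09, −3.46 and −3.30 in CTR and −3.88, −3.93, −3.91, −3.70 and −3.60 in AR113Q samples. All AR113Q arrays lay below all CTR arrays on the HFD, as for 4 of 20 members and 8.28% of all probes, and the groups overlapped on the NCD. The differences were −0.35 (SE 0.11, 0.787-fold, limma adjusted p = 0.0337) and −0.45 (SE 0.11, 0.731-fold, adjusted p = 0.00993). Within slides, each of which held samples of several groups, AR113Q was lower than CTR in 5 of 5 on the NCD and 4 of 4 on the HFD. The NCD call was lost without CTR-NCD replicate 1, 4 or 5 or AR113Q-NCD replicate 3, 4 or 5, each left out alone, with adjusted p of 0.0534 to 0.0932. With quantile normalization the Pprc1 calls were lost on both diets (adjusted p = 0.183 and 0.0741), as they were in the authors' table (adjusted p = 0.218 and 0.0974).

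**Figure D2:**
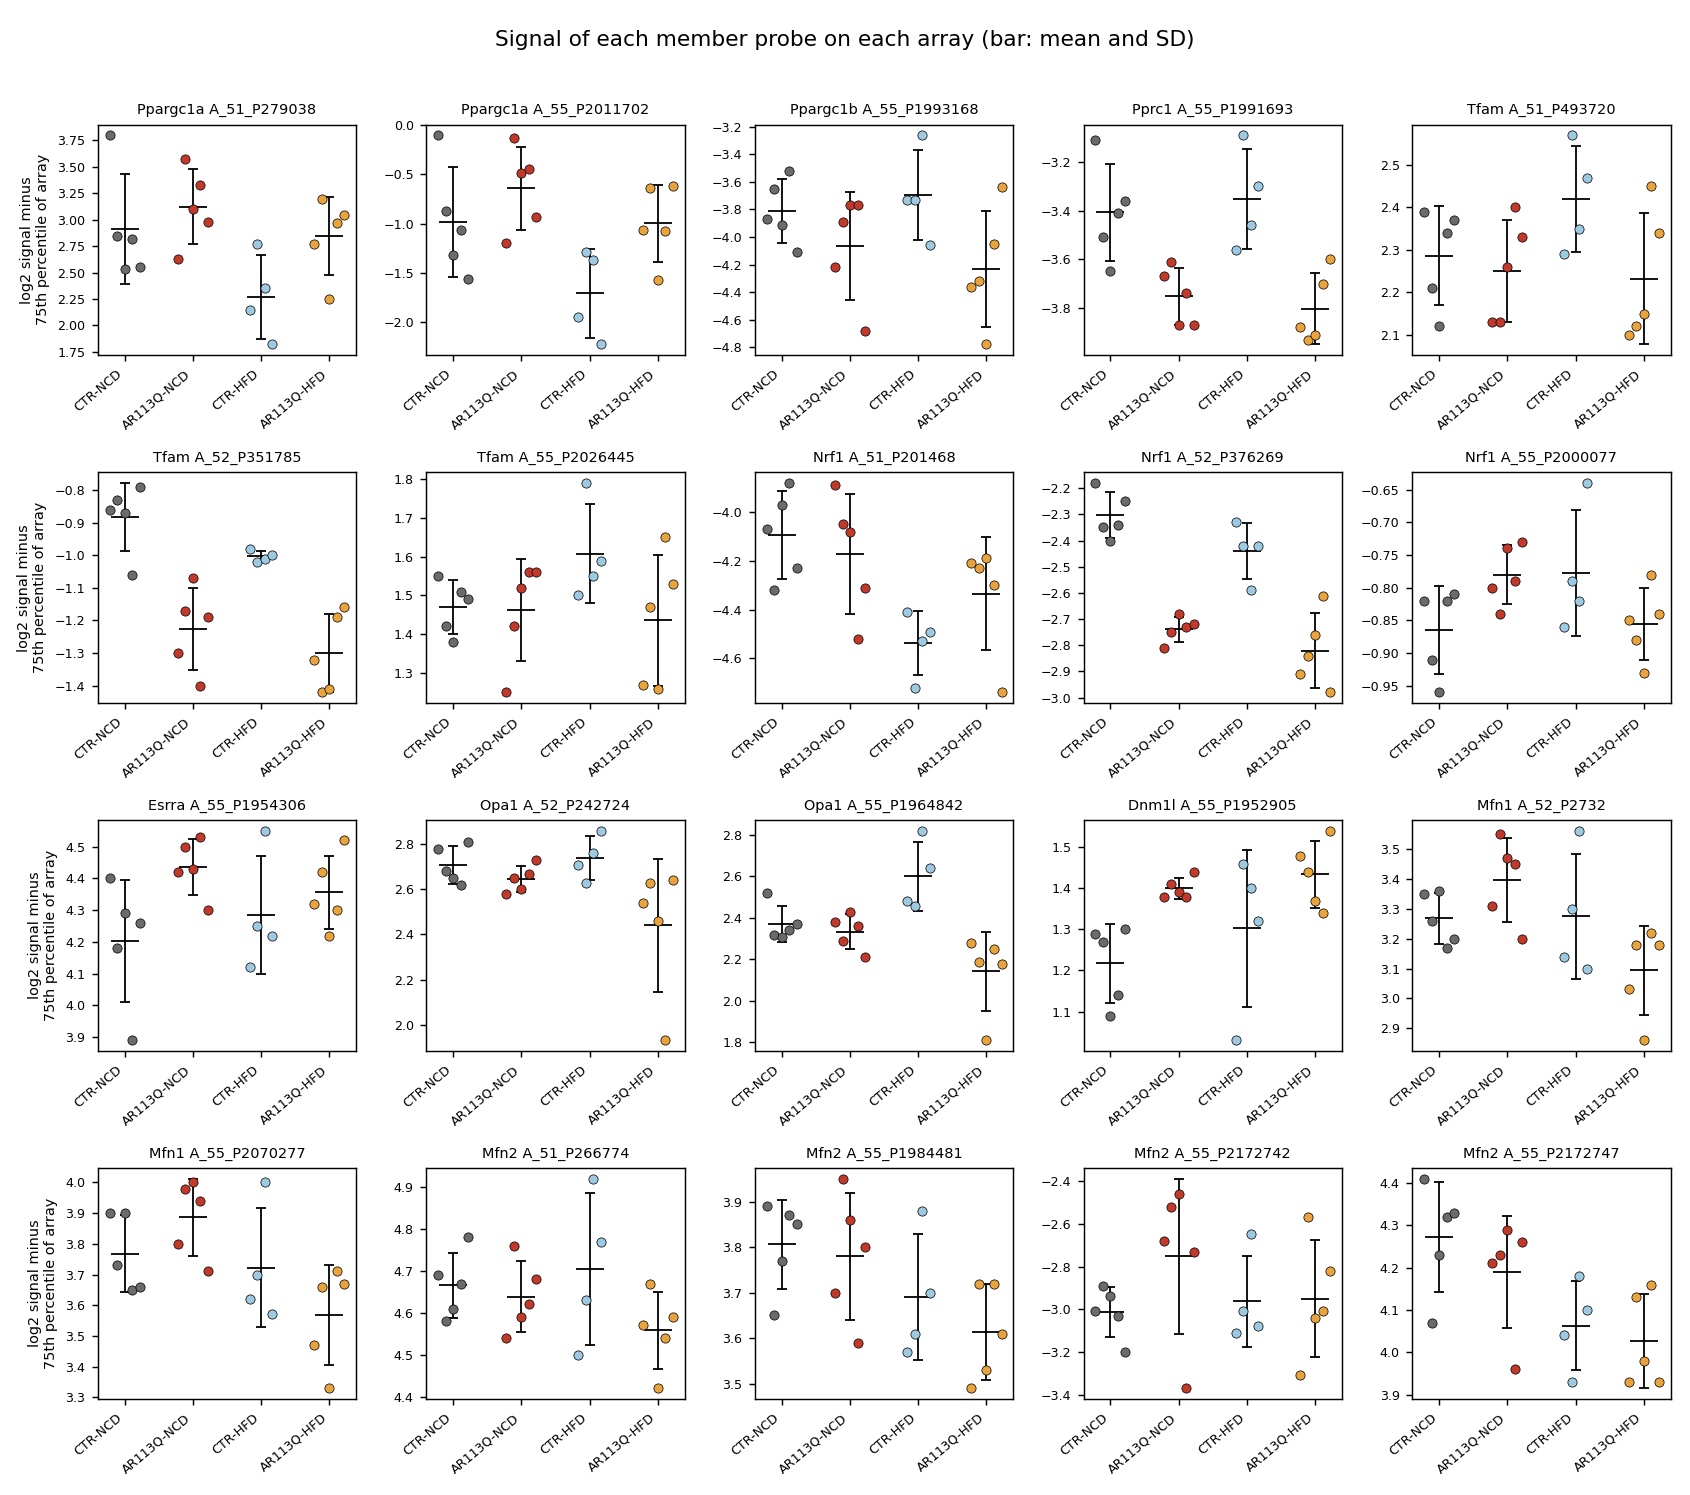
Log2 signal relative to the 75th percentile of the array for the 20 probes of the 10 genes, 1 panel per probe, on all 19 arrays by group. Points are arrays and bars the group mean ± SD, and each panel has its own vertical scale. The AR113Q points lie below all CTR points of the same diet for the Nrf1 upstream and Tfam downstream probes, while the Ppargc1a panels show wide groups and CTR-NCD replicate 1 at 3.80 in the first.

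NRF1 is the transcription factor that binds the promoters of many respiratory chain genes and of Tfam. Its upstream probe was lower in AR113Q muscle on both diets, and its other probes were not. The upstream probe read −2.18, −2.35, −2.40, −2.34 and −2.25 in CTR-NCD and −2.81, −2.75, −2.68, −2.73 and −2.72 in AR113Q-NCD samples. On the HFD it read −2.33, −2.42, −2.59 and −2.42 in CTR and −2.91, −2.84, −2.76, −2.61 and −2.98 in AR113Q samples. The genotypes did not overlap on either diet. On the NCD this held downwards for 2 of 20 members, against 8.26% of all probes. AR113Q minus CTR was −0.44 (SE 0.07, 0.739-fold, limma adjusted p = 0.000446) on the NCD and −0.38 (SE 0.08, 0.768-fold, adjusted p = 0.0021) on the HFD. AR113Q was lower within 5 of 5 slides on the NCD and 4 of 4 on the HFD.

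The Nrf1 middle probe differed by −0.08 (SE 0.13) on the NCD and 0.20 (SE 0.14) on the HFD, and the downstream probe by 0.08 (SE 0.06) and −0.08 (SE 0.06), none of them called. The 95% interval of the downstream probe ran from −0.03 to 0.20 on the NCD and from −0.20 to 0.05 on the HFD, so that a difference of the size seen at the upstream probe lay outside both. The downstream probe was designed on another Nrf1 transcript record than the upstream probe. Deviations of the Nrf1 probes from their group means correlated at 0.15, −0.14 and 0.29 between pairs over the 19 arrays. On both diets the upstream call held with quantile normalization and was lost with median centring and with normexp. The entry of the authors' table listed under this probe followed the mean of the upstream and middle probes more closely than the upstream probe. It was not called on either diet and does not retest the upstream probe alone. With median centring the upstream probe had a limma adjusted p of 0.0529 on the NCD and 0.132 on the HFD, and 0.00671 averaged over both diets.

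Esrra encodes ERRα, an orphan nuclear receptor through which PGC-1α acts on oxidative genes. Its single probe (chr19:6985503-6985562, minus strand) was among the bright members. It read 4.2 ± 0.19 (SD, n = 5) in CTR-NCD, 4.44 ± 0.09 (n = 5) in AR113Q-NCD, 4.29 ± 0.18 (n = 4) in CTR-HFD and 4.36 ± 0.12 (n = 5) in AR113Q-HFD muscle. The differences of 0.24 (SE 0.10, limma adjusted p = 0.11) and 0.07 (SE 0.10, adjusted p = 0.709) were not called, and the groups overlapped. On the NCD, Esrra was called higher with quantile normalization and in the authors' table of log2 values (0.30, adjusted p = 0.0448).

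Tfam, the packaging protein and transcription activator of mitochondrial DNA, fell at its downstream probe. This probe read −0.86, −0.83, −0.87, −1.06 and −0.79 in CTR-NCD and −1.30, −1.17, −1.07, −1.40 and −1.19 in AR113Q-NCD samples. On the HFD it read −0.98, −1.02, −1.01 and −1 in CTR and −1.32, −1.42, −1.41, −1.19 and −1.16 in AR113Q samples. All AR113Q arrays lay below all CTR arrays of the same diet. The differences were −0.35 (SE 0.07, 0.787-fold, limma adjusted p = 0.00334) and −0.29 (SE 0.08, 0.815-fold, adjusted p = 0.0137). AR113Q was lower within 5 of 5 and 4 of 4 slides.

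The upstream and middle Tfam probes gave −0.01 and −0.03 on the NCD (SE 0.09 each) and −0.17 and −0.19 on the HFD (SE 0.09 each), none of them called. On the HFD both were lower in AR113Q muscle within 4 of 4 slides, and with slide as a block the middle probe was called (−0.22, adjusted p = 0.0469). These probes moved together, with a correlation of 0.86 between their deviations from the group means, whereas the downstream probe correlated with them at 0.17 and 0.26. With median centring the downstream Tfam probe had adjusted p of 0.231 on the NCD, 0.396 on the HFD and 0.0765 averaged over both diets. In the authors' table, 6 of the 13 entries for member genes stood for transcripts with several probes, and in 6 of 6 the entry followed the mean of these probes more closely than the probe it was listed under. In that table Tfam differed by −0.11 (adjusted p = 0.301) and Nrf1 by −0.23 (adjusted p = 0.195) on the NCD.

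**Figure D3:**
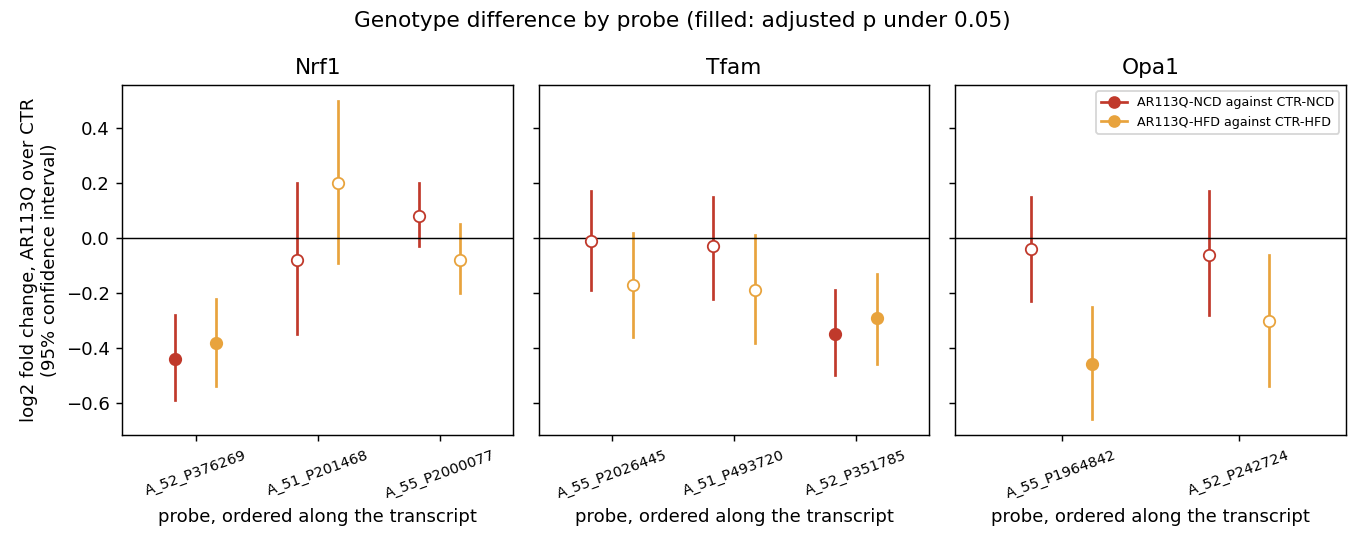
Difference in log2 signal between AR113Q and CTR quadriceps at the separate probes of Nrf1, Tfam and Opa1, on the NCD (red) and the HFD (orange). Probes are ordered from 5′ to 3′, and the Nrf1 downstream probe was designed on another transcript record than the other Nrf1 probes. Points are limma estimates, bars 95% confidence intervals, and filled points have an adjusted p under 0.05. Filled points are the upstream probe of Nrf1 and the downstream probe of Tfam on both diets, and the upstream probe of Opa1 on the HFD.

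Dnm1l encodes DRP1, the GTPase that constricts mitochondria in fission. Its single probe (chr16:16312331-16312390, minus strand) read 1.29, 1.27, 1.09, 1.14 and 1.30 in CTR-NCD and 1.38, 1.41, 1.39, 1.38 and 1.44 in AR113Q-NCD samples. All AR113Q-NCD arrays lay above all CTR-NCD arrays, as did 7.29% of all probes tested. The difference of 0.18 (SE 0.07) was not called (limma adjusted p = 0.114), nor was that of 0.13 (SE 0.08, adjusted p = 0.303) on the HFD, where the groups overlapped. Averaged over both diets Dnm1l rose by 0.16 (SE 0.05, adjusted p = 0.0393). This call was lost without 1 array in 11 of 19 cases, with adjusted p of 0.0511 to 0.0822. It was also lost with median centring, with normexp background correction and with no filter on dim probes, so in 14 of 30 other settings. The NCD difference was called without CTR-HFD replicate 1 (adjusted p = 0.0458).

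OPA1, the inner membrane GTPase that fuses this membrane and shapes the cristae, fell in AR113Q muscle on the HFD at its upstream probe. On the NCD this probe read 2.52, 2.32, 2.31, 2.34 and 2.37 in CTR and 2.38, 2.29, 2.43, 2.36 and 2.21 in AR113Q samples, which overlapped. On the HFD it read 2.48, 2.46, 2.82 and 2.64 in CTR and 2.28, 2.19, 1.81, 2.25 and 2.18 in AR113Q samples, with all AR113Q arrays below all CTR arrays. The difference was −0.46 (SE 0.10, 0.728-fold, 95% interval −0.66 to −0.25, limma adjusted p = 0.00292) on the HFD and −0.04 (SE 0.09, adjusted p = 0.845) on the NCD. The interaction term was −0.42 (SE 0.13, unadjusted p = 0.00565, adjusted p = 0.914), so that a difference between the diets was not shown. The Opa1 call was lost with median centring (adjusted p = 0.0687) and with normexp background correction (adjusted p = 0.21).

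The downstream Opa1 probe differed by −0.30 on the HFD (SE 0.11, limma adjusted p = 0.0789) and by −0.06 (SE 0.11) on the NCD. Its HFD groups overlapped, and AR113Q-HFD replicate 4 read 1.93 where the other AR113Q-HFD samples read 2.46 to 2.64. The array that was lowest at the upstream probe was AR113Q-HFD replicate 3, and deviations from the group means of both probes correlated at −0.01 over the 19 arrays. In the authors' table the Opa1 entry, which averages the probes, was lower on the HFD (adjusted p = 0.00498).

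The mitofusins of the outer membrane, Mfn1 and Mfn2, were not called in any comparison. Both Mfn1 probes (chr3:32476420-32476479 and chr3:32476215-32476274, plus strand) gave 0.13 and 0.12 on the NCD and −0.18 and −0.15 on the HFD (SE 0.10 each), with overlapping groups. They were close copies of each other, with a correlation of 0.98 between deviations. Of the 4 Mfn2 probes, 3 were bright (chr4:147247695-147247748, chr4:147248019-147248078 and chr4:147248131-147248190, minus strand) and differed by −0.15 to −0.03 between genotypes on either diet. The fourth (chr4:147255665-147255724, 7475 bases from the nearest of the others and designed on a cDNA clone) differed by 0.26 (SE 0.16, limma adjusted p = 0.323) on the NCD, and was called there without AR113Q-NCD replicate 4 (0.41, adjusted p = 0.0404).

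No member was called between the diets within a genotype, which does not show that none changed. Between AR113Q-HFD and AR113Q-NCD, 0 of 20 members were called, against 0.025% of all probes (8 of 32026), and 2 members had an unadjusted p under 0.05 beside 6.73% of all probes. These were the Mfn1 probes, at −0.30 (SE 0.10, unadjusted p = 0.00651, limma adjusted p = 0.533) and −0.32 (unadjusted p = 0.00497, adjusted p = 0.503), lower within 5 of 5 slides. Between CTR-HFD and CTR-NCD, 0 members and 0% of all probes were called by limma, while 5 members and 8.66% of all probes had an unadjusted p under 0.05.

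Both Ppargc1a probes were among these 5. In control muscle they differed by −0.64 (SE 0.27, unadjusted p = 0.0296, limma adjusted p = 0.536) and −0.73 (SE 0.30, unadjusted p = 0.0254, adjusted p = 0.524) between HFD and NCD, and were lower within 4 of 4 slides. The others were the Nrf1 middle probe at −0.45 (SE 0.14, unadjusted p = 0.00491, adjusted p = 0.392), the Opa1 upstream probe at 0.23 (unadjusted p = 0.0295, adjusted p = 0.536) and 1 Mfn2 probe at −0.21 (unadjusted p = 0.0251, adjusted p = 0.523). The Nrf1 middle probe was the only member whose arrays did not overlap between the diets, as 1.44% of all probes did downwards. The interaction of genotype and diet called 0 members and 0% of all probes in the limma fit, and 2 members beside 4.65% of all probes had an unadjusted p under 0.05.

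Fiber markers moved with the genotype. All 8 fast glycolytic fiber markers were called lower in AR113Q muscle on both diets in the limma fit. Their median difference was −0.45 on the NCD and −0.50 on the HFD. On the NCD their summed level was 11.49 to 11.72 in control and 11.07 to 11.31 in AR113Q samples. On the HFD it was 11.51 to 11.75 and 10.96 to 11.20, with no overlap between genotypes on either diet. Whether these calls held under the other scalings of the arrays was not tested. The 8 skeletal muscle markers share Myh4 and Tnnt3 with this list. Of them 5 were called lower on each diet and 1 higher on the HFD, with median differences of −0.27 and −0.41. The paper lists Tnni2, Myh4 and Pvalb, all among the fast fiber markers here, as unchanged in AR113Q quadriceps. Its lists of changed genes also required a fold of at least 1.5 or at most 0.6, whereas calls here used adjusted p alone. The paper's text does not say whether that limit decided which markers were unchanged, so these statements cannot be compared directly. It lists Tnni1, Tnnc1 and Tnnt1, all among the slow fiber markers here, as upregulated. Of 9 slow fiber markers 1 rose on each diet, with a median difference over the 9 of 2.25 on the NCD and 1.32 on the HFD, and their summed level varied widely, from 4.02 to 8.57 in control and 8.35 to 9.35 in AR113Q samples on the NCD, and from 2.58 to 8.82 and 3.85 to 8.04 on the HFD. Deviations from the group means over the 19 arrays, which share RNA and scan with the members, correlated with this slow fiber sum at 0.64 and 0.65 for the Mfn1 probes, 0.61 for Esrra, 0.55 for the Opa1 upstream probe, 0.54 for Ppargc1b, 0.50 for the Tfam downstream probe, 0.18 and 0.33 for the Ppargc1a probes and −0.37 for the Nrf1 upstream probe. With the fast fiber sum the correlations were 0.49 and 0.45 for the Mfn1 probes, 0.62 for Esrra and 0.25 for the Opa1 upstream probe. They were 0.22 for Ppargc1b, −0.08 for the Tfam downstream probe, 0.49 and 0.41 for the Ppargc1a probes and 0.03 for the Nrf1 upstream probe. Pprc1 correlated at −0.1 with the slow and 0.55 with the fast fiber sum. The part of fiber composition in the differences of the members was not tested.

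Around the 10 members, 5 lists of 93 genes of the same pathways were examined, of which 91 genes with 152 probes were tested. On the NCD, 14 of 152 probes were higher and 15 lower in AR113Q muscle (19.1%, against 17.6% of all probes), and on the HFD 6 were higher and 30 lower (23.7%, against 17.9%). With the median of each array subtracted these counts fell to 8 on the NCD and 6 on the HFD, and to 3 on each with normexp background correction. Without CTR-HFD replicate 4 the HFD count was 23. The shares of all probes called in these other fits are not given here.

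The fission machinery held the largest change among the 93 genes. Gdap1 encodes an outer membrane protein that promotes fission and is mutated in a form of Charcot-Marie-Tooth disease. Its probe read 1.11, 1.15, 0.92, 1.25 and 2 in CTR-NCD and −1.90, −1.67, −2.02, −1.34 and −1.55 in AR113Q-NCD samples, and 1.35, 1.49, −0.04 and 1.28 in CTR-HFD and −1.79, −1.41, −1.22, −0.93 and −1.72 in AR113Q-HFD samples. The genotypes did not overlap, and CTR-HFD replicate 3 was the lowest control. Gdap1 fell, with differences of −2.98 (SE 0.27, 0.127-fold, limma adjusted p = 2.71e-06) on the NCD and −2.43 (SE 0.29, 0.185-fold, adjusted p = 2.46e-05) on the HFD, and was called in 30 of 30 other settings on each diet, at −3.07 to −2.38 and −2.78 to −2.12.

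Of the 22 fission probes, 1 was higher and 5 lower on the NCD (27.3%, against 17.6% of all probes). On the HFD 0 were higher and 5 lower (22.7%, against 17.9%). March5, a ubiquitin ligase of the outer membrane that acts on fission and fusion proteins, fell at 2 of its 3 probes, with differences of −0.36 and −0.34 on the NCD (adjusted p = 0.00592 and 0.0185) and −0.38 and −0.41 on the HFD (adjusted p = 0.00653 and 0.00832). The second NCD call was lost without CTR-NCD replicate 5 or AR113Q-NCD replicate 1. The fission regulator Mtfr1l fell at different probes on the 2 diets, at −0.30 (adjusted p = 0.0386, called in 19 of 30 other settings) and −0.35 (adjusted p = 0.00323, called in 27 of 29). Its relative Mtfr2, at −0.35 (adjusted p = 0.0457) and −0.37 (adjusted p = 0.0451), was called in 11 of 30 and 9 of 30 other settings. Dnm2, a dynamin, rose at 1 of 2 probes by 0.26 on the NCD (adjusted p = 0.0143), while its other probe read 0.06 (adjusted p = 0.772).

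Of the 32 probes for fusion and inner membrane shaping, 2 were higher and 4 lower on the NCD (18.8%, against 17.6% of all probes). On the HFD 1 was higher and 10 lower (34.4%, against 17.9%). Afg3l1, a subunit of the inner membrane m-AAA protease, fell at all 3 probes (1 of them called in 20 of 29 other settings on the HFD), most at one that read 1.27 to 1.65 in CTR-NCD and 0.69 to 0.83 in AR113Q-NCD samples, at −0.67 (SE 0.10, adjusted p = 0.000123) on the NCD and −0.65 (SE 0.10, adjusted p = 0.000253) on the HFD. This probe was called in 29 of 29 other settings on each diet. Miga1, which promotes fusion at the outer membrane and has the older name Fam73a on the array, rose by 0.48 (SE 0.09, adjusted p = 0.00104) and 0.58 (SE 0.09, adjusted p = 0.000335) and was called in 30 of 30. The cristae organizer Chchd3 rose at 1 probe on the NCD, at 0.40 (adjusted p = 0.00746), while its other probe read −0.23 (adjusted p = 0.0453, called in 11 of 30 other settings) and fell on the HFD, at −0.36 (adjusted p = 0.0042). On the HFD the prohibitin Phb fell at 1 of 2 probes, at −0.33 (adjusted p = 0.00331), while its other probe read −0.11 (adjusted p = 0.797). The cristae junction gene Apool fell on this diet at −0.36 (adjusted p = 0.0125). Apoo, another such gene, fell there at 2 of 3 probes, at −0.29 and −0.28 (adjusted p = 0.0233 and 0.0412). These Apoo probes were called in 22 of 29 and 15 of 29 other settings, and the third read −0.17 (adjusted p = 0.215).

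**Figure D4:**
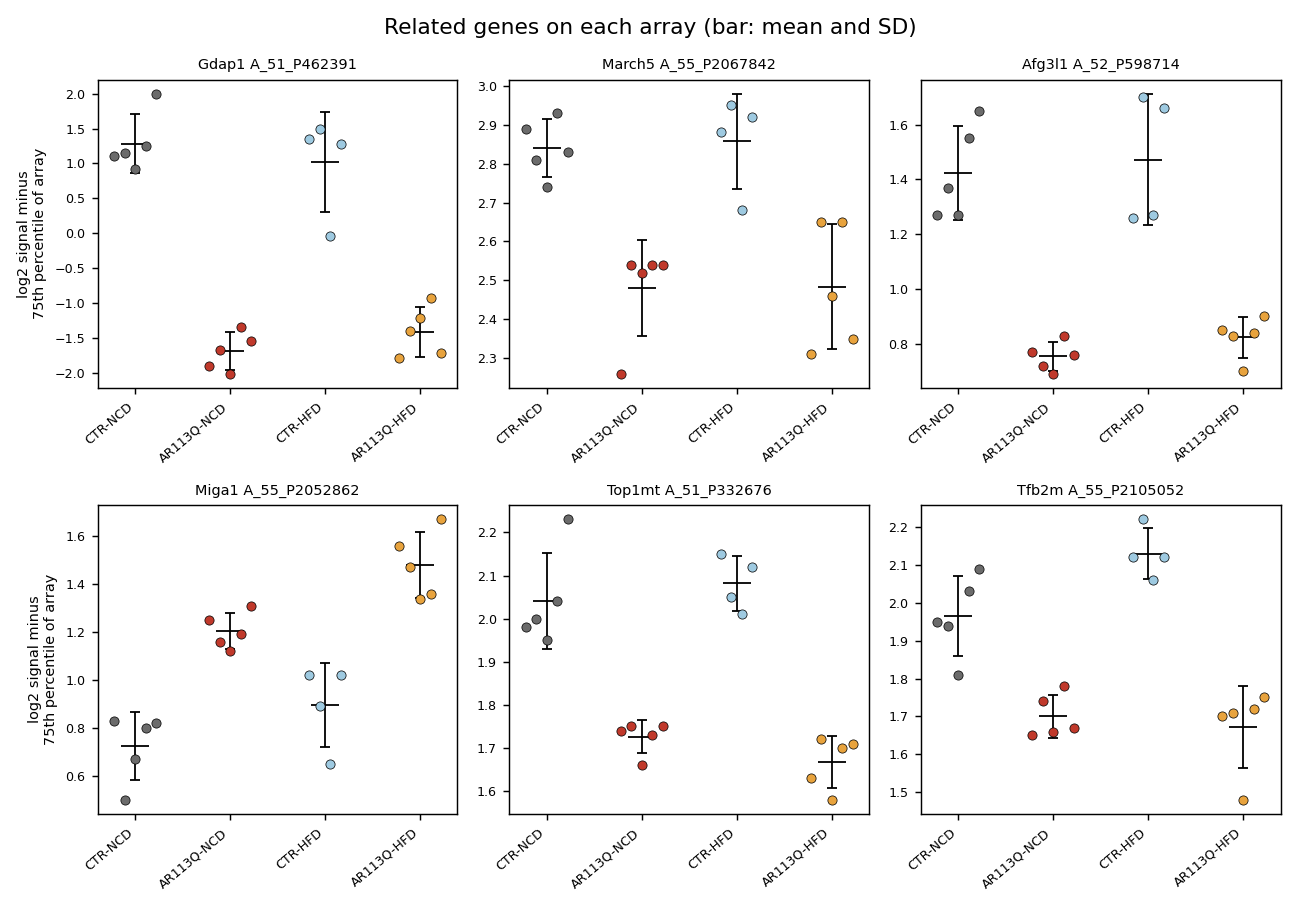
Log2 signal relative to the 75th percentile of the array for 6 genes of the related lists, Gdap1, March5, Afg3l1, Miga1, Top1mt and Tfb2m, on all 19 arrays by group with bars for the group mean ± SD. Gdap1 shows the widest gap, from −2.02 to −0.93 on AR113Q arrays and from −0.04 to 2 on CTR arrays, and Miga1 is the gene of the 6 that was higher in AR113Q samples.

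For maintenance and transcription of mitochondrial DNA, the process that Tfam serves, 3 of 26 probes were higher and 3 lower on the NCD. This was 23.1%, against 17.6% of all probes. On the HFD 3 were higher and 6 lower (34.6%, against 17.9%). The mitochondrial topoisomerase Top1mt fell on both diets, at −0.31 (SE 0.06, adjusted p = 0.00104) and −0.42 (SE 0.06, adjusted p = 0.000148), as did Tfb2m, the partner of Tfam at mitochondrial promoters, at −0.26 (SE 0.07, adjusted p = 0.00906) and −0.46 (SE 0.07, adjusted p = 0.000198). The mitochondrial RNA polymerase Polrmt fell on the HFD, at −0.32 (adjusted p = 0.00404). In the other direction, the catalytic subunit of the DNA polymerase, Polg, rose at 1 of 2 probes by 0.28 (adjusted p = 0.016) and 0.32 (adjusted p = 0.0111), and the terminator Mterf1a by 0.35 (adjusted p = 0.00924) and 0.33 (adjusted p = 0.0213), the latter lost without CTR-HFD replicate 1, CTR-HFD replicate 4 or AR113Q-HFD replicate 5. The DNA-binding protein Ssbp1 was called both ways, at −0.26 and 0.30 on the NCD and −0.33 and 0.35 on the HFD at separate probes, calls that held in 21 to 27 of 29 or 30 other settings. The calls of Top1mt, Tfb2m, Polg and Mterf1a, as those of March5, were lost on both diets with median centring and with normexp background correction.

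Among the 50 probes of PGC-1 partners and modulators, 8 were higher and 3 lower on the NCD (22%, against 17.6% of all probes). On the HFD 2 were higher and 4 lower (12%, against 17.9%). Ncor1, a co-repressor that opposes PGC-1α at nuclear receptors, rose at 1 of 4 probes by 0.78 (SE 0.08, adjusted p = 9.04e-06) on the NCD and 0.86 (SE 0.09, adjusted p = 7.69e-06) on the HFD, while its other 3 probes ranged from −0.15 to 0.02. On the NCD the transcription factor Foxo1 rose at both probes by 0.53 (adjusted p = 0.00448) and 0.48 (adjusted p = 0.007), and Sirt1, the deacetylase that activates PGC-1α, by 0.34 (adjusted p = 0.00405). Creb1, which drives Ppargc1a transcription, fell on the NCD at 1 of 2 probes, at −0.45 (adjusted p = 0.01). Atf2, another activator of that promoter, fell on the HFD at 2 of 4 probes, at −0.31 each (adjusted p = 0.0115 and 0.0257, the latter lost without CTR-HFD replicate 1, CTR-HFD replicate 4 or AR113Q-HFD replicate 5), and 1 of them read −0.29 on the NCD (adjusted p = 0.0277, called in 21 of 29 other settings). Yy1, which works with PGC-1α downstream of mTOR, fell on the HFD, at −0.26 (adjusted p = 0.0028). Of the calls named from the 5 lists, those of Gdap1, Miga1 and the first Afg3l1 probe held on each diet both with median centring and with normexp, and those of Ncor1, Foxo1, the higher Chchd3 probe on the NCD and the higher Ssbp1 probe on the HFD held with median centring but not with normexp.

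Transport and clearance of mitochondria gave 0 calls among 24 probes on the NCD, against 17.6% of all probes. On the HFD 5 probes were lower (20.8%, against 17.9% of all probes called). The mitophagy receptor Bnip3 fell there at 2 of 3 probes, at −0.44 (adjusted p = 0.000348) and −0.40 (adjusted p = 0.000405). Its relative Bnip3l fell at 1 of 4, at −0.30 (adjusted p = 0.0162), a call lost without CTR-HFD replicate 4. Rhot2, the outer membrane GTPase that couples mitochondria to motors, fell at both probes, at −0.42 (adjusted p = 0.00182) and −0.35 (adjusted p = 0.033, called in 20 of 29 other settings). A difference between the diets was not called for any of these genes by the interaction term. No probe of the 5 lists was called between diets within a genotype, where 0.025% of all probes were called in AR113Q and 0% in control muscle.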

How the data were processed

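Single-colour Agilent arrays of 19 quadriceps samples were read by the authors with Feature Extraction (10.7.3.1 per the submitters' processing notes), whose headers record local background subtraction and detrending within each array. The deposited spot values are intensities with no normalization between arrays. The table that the authors supplied holds log2 values on a common scale, by a method not given in the sources used here.

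Intensities were taken to log2, outlier and control spots left out, spots of a probe averaged, and the 75th percentile of each array subtracted. Probes well above background at 0.5 or more of their spots on at least 4 arrays were tested (32026). Samples were grouped by their labels. The fit used limma (version 3.58.1, under R 4.3.3), no covariate and the Benjamini-Hochberg correction. Other software was the R package data.table, version 1.17.8, Python 3.11.15 and matplotlib 3.10.9. The fit was tested on simulated data. The number of arrays limits the precision.

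The members, related lists and marker lists were chosen with earlier results of these data known. Named are all members, from each related list up to 6 called genes by smallest adjusted p, and the 5 genes that follow Ppargc1a most closely. Old symbols were updated through RefSeq gene names. Alternatives were median centring, quantile normalization, the authors' table, normexp with offset 50, no filter or a stricter filter, the replicate number or slide as a block, array weights, another variance estimate, an added fold threshold and each array left out. Counts for the related lists under these were added after seeing the data.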

Additional observations from a re-analysis of the deposited data

Results flagged for a closer look

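Of 80 groups of arrays (20 probes in 4 groups), 6 held an array far from the others by Dixon's criterion, which chance meets in about 1 of 20 groups. Ppargc1a (brighter probe) read 3.80 in CTR-NCD replicate 1, against 2.53 to 2.85 in the other CTR-NCD samples. The Nrf1 middle probe read −4.74 in AR113Q-HFD replicate 5, against −4.30 to −4.19. The Opa1 upstream probe read 2.52 in CTR-NCD replicate 1, against 2.31 to 2.37, and 1.81 in AR113Q-HFD replicate 3, against 2.18 to 2.28. The Opa1 downstream probe read 1.93 in AR113Q-HFD replicate 4, against 2.46 to 2.64. The Mfn2 probe A_55_P2172747 read 3.96 in AR113Q-NCD replicate 4, against 4.21 to 4.29.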

How the results depend on the processing

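The count of member probes called, 3 on the NCD, 4 on the HFD and 5 over both diets, was 0, 0 and 2 with median centring, 0, 0 and 1 with normexp background correction, and 0 in all 3 with the fold threshold added. In the authors' table, with 13 member entries, the count was 1 on each diet and 5 over both. It was 3, 3 and 6 with quantile normalization, 3, 5 and 5 with slide as a block and 3, 4 and 7 with slide as a random block. Leaving out each array in turn gave 2 to 4 on the NCD, 4 to 5 on the HFD and 4 to 7 over both diets, and 0 between diets and for the interaction. The count of related list probes, 29, 36 and 58, was 8, 6 and 22 with median centring, 3, 3 and 7 with normexp, 19, 19 and 35 in the authors' table, and 20 to 33, 23 to 37 and 49 to 64 with each array left out. Over single member probes and comparisons, 3486 alternative values kept their side of the threshold, 49 lost and 23 gained a call, and 0 calls reversed. Differences called in neither fit counted as kept whatever their sign. The shares of all probes called under these settings are not given beside the counts, which therefore cannot be set against the background.

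Normexp moved the median of all probes by −0.55 on the NCD and −0.31 over both diets. The share of calls that were higher was 44.6% on the HFD, 56.7% with quantile normalization, 61% with median centring and 57% in the authors' table, and over both diets 45.4%, against 54.9% with quantile normalization and 56.8% with median centring. The causes were not tested.

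The samples share replicate numbers, and same-numbered samples did not all deviate together (27 pairs, r of −0.21 to 0.54, median 0.24, 19 over 0.1, against a median of −0.08 for other pairs). For samples of the same slide the median was 0.27, with 22 of 27 pairs over 0.1, against −0.09 and 24 of 108 for other pairs. Replicate number and slide matched except for CTR-HFD replicate 4, on slide 5, so these are nearly the same comparison. With the replicate block the count of member probes called was 3, 4 and 5 on the NCD, on the HFD and over both diets, and the count of related list probes was 38, 41 and 62.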

Other observations

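The 5 genes whose probe followed the brighter Ppargc1a probe most closely, by deviations from the group means over the 19 arrays, were Tmem251 (Pearson r 0.89, Spearman rho 0.89), Ugp2 (0.88 and 0.90), Rbm12 (0.85 and 0.79), Impact (0.83 and 0.78) and Kin (0.83 and 0.86). Ugp2 makes UDP-glucose for glycogen synthesis. Without the pair of arrays farthest from the median of Ppargc1a, r ranged from 0.74 for Impact to 0.95 for Ugp2. These arrays share RNA, labelling and scan with Ppargc1a, and the genes were picked for their r, so that it is a description.

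Few markers of other cells in muscle were called. Of the white adipocyte, red blood cell, macrophage, Schwann cell and endothelial markers, 0 were called on either diet in the limma fit, and of 4 brown adipocyte markers tested 0 were called on the NCD and 1 was lower on the HFD. The summed macrophage level was 3.17 to 3.90 in control and 3.28 to 3.89 in AR113Q samples on the NCD, and 3.44 to 3.69 and 3.07 to 3.81 on the HFD. The brown adipocyte markers Ucp1 and Elovl3 were well above background on 9 arrays and 1 array. Of the 8 skeletal muscle markers, 5 were lower in AR113Q muscle on the NCD, and on the HFD 5 were lower and 1 higher.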
